A study of Mus musculus with 58 samples.

Results

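The complement components and regulators examined here are 33 mouse genes, from the recognition subunits of C1 to the terminal components that form the membrane attack complex, with their receptors and inhibitors. They were chosen by name from a list of gene symbols, matched by Ensembl identifier to the rows of the count table, and are 33 of the 56953 genes in that table. The rule itself used no measured value, and the list was drawn up with earlier results of these data known. All 33 had at least 1 read in the 58 libraries, and 23 had enough reads to be tested (at least 5 reads in more than 3 libraries). The libraries are bulk Smart-seq3 libraries of adipose stem cells (ASC) from the inguinal white adipose tissue (iWAT) of C57BL6/J mice. Cells were sorted as CD45-/CD31-/CD34+ and split into DPP4- cells (ASC1) and DPP4+ cells (ASC2). Castration of males and ovariectomy of females took place at an age of 4 weeks, and tissue was taken at 10 weeks, after fasting, together with that of age-matched control mice. Control males gave 7 libraries of ASC1 and 8 of ASC2, and ovariectomized females (labelled ovariex) gave 3 and 8. Castrated males and control females each gave 8 libraries of either population.

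Complement is a cascade of plasma proteins that marks cells and microbes for removal. The classical pathway starts when C1q binds its target and activates the proteases C1r and C1s, the lectin pathway starts with the MASP proteases, and the alternative pathway amplifies both through factor B, factor D and properdin. All routes converge on C3 and then C5, and the terminal components C6, C7, C8 and C9 join C5b in the membrane attack complex, in which C7 is the subunit that lets the complex attach to a membrane. The liver makes most circulating complement, fibroblasts and macrophages make several components locally, and factor D is known in fat as adipsin.

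The promoters of C7, C6 and C1ra are printed because C7 was the member with the largest differences in the castration and sex comparisons. C6 is its near neighbour on chromosome 15, with 1 protein-coding gene between them, and C1ra is a classical pathway gene that shares a motif with C7. Each sequence is the RefSeq window of 250 bases before and 50 bases after the annotated start, 300 bases in all, on the GRCm38.p6 build. The windows are chr15:5063724-5064023 on the minus strand for C7, chr15:4726960-4727259 on the plus strand for C6 and chr6:124512371-124512670 on the plus strand for C1ra. Capitals mark TTCNNNGAA, the gamma-activated sequence that STAT factors are known to bind.
C7: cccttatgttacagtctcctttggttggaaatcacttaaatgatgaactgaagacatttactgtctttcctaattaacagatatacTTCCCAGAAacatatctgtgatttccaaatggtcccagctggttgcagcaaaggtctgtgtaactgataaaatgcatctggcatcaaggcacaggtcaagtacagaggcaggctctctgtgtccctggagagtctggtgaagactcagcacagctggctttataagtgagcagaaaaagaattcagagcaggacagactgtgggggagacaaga
C6: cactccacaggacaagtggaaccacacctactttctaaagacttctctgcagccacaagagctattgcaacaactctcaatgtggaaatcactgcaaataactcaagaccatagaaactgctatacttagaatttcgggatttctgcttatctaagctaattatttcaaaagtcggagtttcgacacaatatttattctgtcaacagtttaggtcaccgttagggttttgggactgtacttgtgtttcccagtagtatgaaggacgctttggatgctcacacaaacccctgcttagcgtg
C1ra: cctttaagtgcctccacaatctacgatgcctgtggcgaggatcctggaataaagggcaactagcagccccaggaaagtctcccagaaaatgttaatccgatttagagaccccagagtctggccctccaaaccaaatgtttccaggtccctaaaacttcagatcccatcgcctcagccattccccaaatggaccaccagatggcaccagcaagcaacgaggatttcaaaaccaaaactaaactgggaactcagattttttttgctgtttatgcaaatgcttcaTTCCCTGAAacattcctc

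The motif lay at -164 from the start of C7 and at 32 of C1ra, and C6 had no match in its window. Of the 24 members with a window, C8a, Masp2 and Vtn also held it. Of all 32851 RefSeq mouse promoter windows of the same length, 8.30% held TTCNNNGAA. The androgen and glucocorticoid receptor half-site AGAACA, searched on both strands, occurred in 19.0% of all windows and in windows of 7 of the 24 members (C8g, C9, C1qb, C1qc, C1s1, C5ar2 and Vtn), C7, C6 and C1ra not among them. Its full inverted repeat with a spacer of 3 bases, which contains the half-site, was found in 3 of the 32851 windows. The estrogen response element, an inverted repeat of GGTCA with the same spacer, was found in 23. None of these windows belonged to the 24 members with a window. The 9 members without one (C1qa, C2, C4a, C4b, Cfb, Cfi, Serping1, Masp1 and Clu) were not searched. All matches describe letters in the window only.

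Library depth lay between 106566 and 1421547 reads, with a median of 682423.5. Levels are CPM, reads scaled to a common library size with TMM factors. Dpp4 followed the sort and had a median of 7.64 to 33.9 CPM in the 4 ASC1 groups and 87.6 to 241 CPM in the 4 ASC2 groups, and fibroblast markers (Pdgfra, Col1a1, Dcn and Lum) were present in every library. The 9 macrophage and leukocyte markers were also present in all groups, although CD45+ cells had been sorted out. Their sum was over 5000 CPM in 5 libraries, replicates B, C and D of control male ASC1 and I and J of castrated male ASC2. The 3 ovariectomized ASC1 libraries stood apart, with a fibroblast sum of 43140 to 45110 CPM against 3024 to 13980 CPM in all others. Sex-chromosome transcripts went against the sex label in 27 of the 58 libraries, which were 4 of 7 control male ASC1, 4 of 8 control male ASC2, 8 of 8 castrated male ASC1, 5 of 8 control female ASC1 and 6 of 8 control female ASC2. A library was counted when it was labelled male with Xist over 15 CPM, or labelled female with 4 Y-linked genes together over 15 CPM. Some held both kinds. Control male ASC2 E to H had Xist at 50.15 to 73.95 CPM and Y-linked genes at 12.6 to 33.9 CPM. Control female ASC2 B, E, G and H had 35.65 to 87.1 and 36.4 to 53.2 CPM. Castrated ASC1 had Y-linked genes at 0 to 4.72 CPM. The paper reports weak male contamination of its female controls and proposes, from low Sult1e1 and C7, that they are clean. Groups are therefore named by label throughout, and results that rest on these libraries are given with and without them where each group keeps libraries. That could not be done for comparisons that use castrated male ASC1. Bulk RNA cannot tell fewer cells of a type from less RNA per cell. The labels do not say which libraries came from which mouse, so that p-values measure the spread between these libraries.

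Among the members, Serping1 (ENSMUSG00000023224.13), which encodes the C1 inhibitor, had most reads (57671 over all libraries), followed by C3 with 33476, C1s1 with 15992, C1ra with 15837 and C4b with 10362. Per kilobase of the longest coding transcript, Serping1 ranked at the top of the 32 members with a known length in all 8 groups. In control male ASC2 it reached 1522 ± 320 CPM per kb (SD, n = 8), ahead of C3 at 328 ± 159, C7 at 199 ± 179, C1s1 at 172 ± 36.2 and C1ra at 156 ± 36.3 CPM per kb. The level of C7 differed from those of C3, C1s1 and C1ra by less than its SD. In control male ASC1, C7 was at 73.1 ± 29.2 CPM per kb (n = 7) and ranked 4. Its rank was 23 in both castrated groups, with 1.41 ± 2.01 CPM per kb in ASC1 and 0.794 ± 0.951 in ASC2 (n = 8 and 8).

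The other terminal components were nearly silent. Reads over all 58 libraries numbered 15 for C6, 2 for C8a, 1 for C8b, 33 for C8g and 2 for C9, against 4338 for C7. Hc, which encodes C5, had 279 reads and was the sole terminal component besides C7 that could be tested. C6, the partner that binds C5b before C7, was at most at 18.4 CPM in a library (ovariectomized ASC1 N), and had no read in 3 of the 8 groups. Of the 4338 C7 reads, 3033 came from control male ASC2 and 1067 from control male ASC1. Also too low to test were the complement regulators Cfi (16 reads) and Cd59b (20), the receptor gene C5ar2 (74), the lectin pathway protease Masp2 (2) and C4a (46). C4a and C4b are near-identical copies, as are Cd59a and Cd59b, so the division of reads between them is uncertain.

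**Figure D1:**
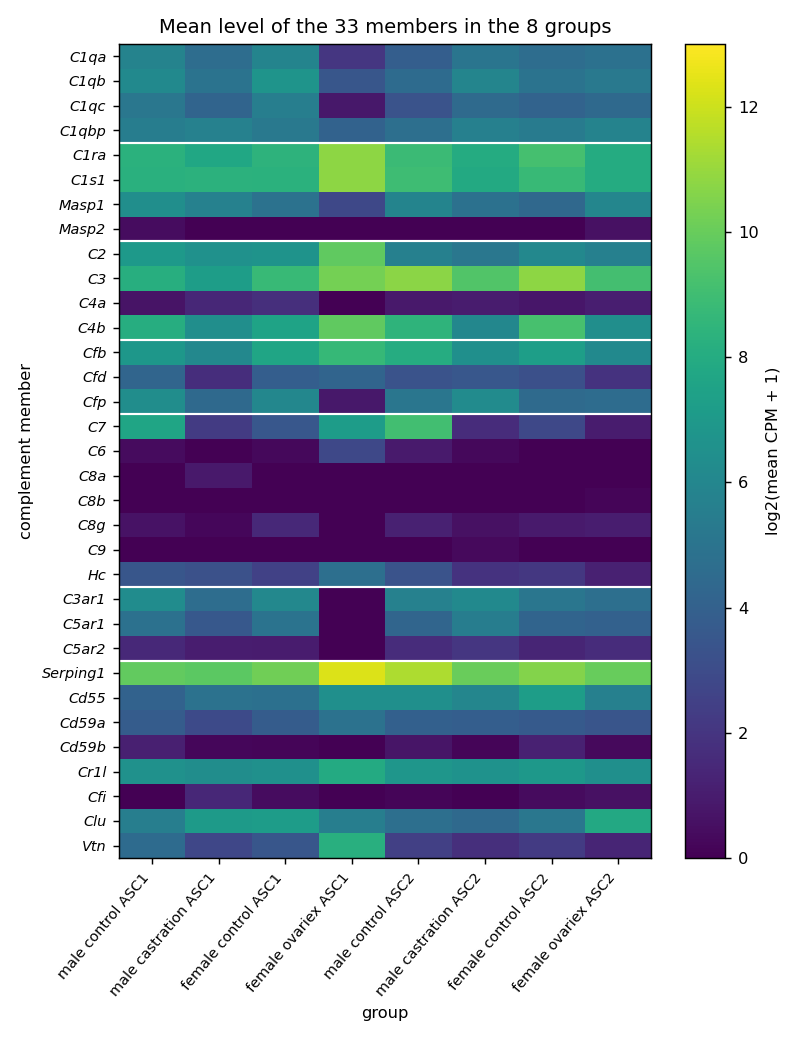
Heatmap of the 33 members (rows) in the 8 groups (columns), with colour for log2 of the mean CPM plus 1, not corrected for length. The C7 row is bright in both control male groups and in ovariectomized ASC1 and dark elsewhere, while the rows of C6, C8a, C8b, C8g and C9 are dark in every group.

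C7 (ENSMUSG00000079105.5) was near background in both castrated groups and high in every control male library. In control male ASC1 the 7 libraries lay between 122 and 337 CPM with a median of 171, and in castrated male ASC1 the 8 libraries lay between 0 and 14.4 with a median of 0.590. In ASC2 the lowest, median and highest values were 209, 332 and 1664 CPM in control males and 0, 1.35 and 7.26 CPM in castrated males. The groups did not overlap in either population. The log2 fold change was -6.09 in ASC1 (standard error 0.57, adjusted p = 2.17e-11, edgeR) and -7.92 in ASC2 (standard error 0.57, adjusted p = 3.37e-16, edgeR), 68.0-fold and 242-fold lower. The difference between the populations in this effect was -1.83 (standard error 1.04) and missed the threshold (adjusted p = 0.408, edgeR).

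Within the control male groups, C7 was high in libraries with and without Xist over the limit. Among control male ASC1 libraries, C7 was at 178, 171 and 265 CPM in replicates B, C and D, which had no Xist over the limit. It was at 125, 337, 122 and 171 CPM in E, F, G and H, which did. Y-linked genes together were at 50.9 to 64.7 CPM in B to D and 4.36 to 15.6 CPM in E to H. In control male ASC2, replicates A to D held 252, 672, 321 and 1664 CPM and E to H, against the label, 320, 484, 209 and 344 CPM. The ranges of both sets overlapped in both populations. In libraries labelled control female, C7 was at 3.12 to 20.8 CPM in the 5 ASC1 libraries with Y-linked transcripts, and at 0, 8.56 and 8.02 CPM in A, E and F. All 8 castrated ASC1 libraries held Xist (51.9 to 118 CPM), with Y-linked genes at 0 to 4.72 CPM. All 8 castrated ASC2 libraries held Y-linked transcripts (55.9 to 100 CPM), and C7 was low in both groups. The part of swapped or mixed libraries in the C7 differences was not tested.

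C7 was 17.3-fold higher in control males than in control females in ASC1 (log2 4.12, standard error 0.47, adjusted p = 3.70e-08, edgeR), where the females had a lowest, median and highest value of 0, 10.3 and 20.8 CPM. In ASC2 it was 87.6-fold higher (log2 6.45, standard error 0.50, adjusted p = 8.02e-15, edgeR), and the females lay at 0, 5.89 and 14.7 CPM. No male library overlapped with a female library in either population. Ovariectomy gave values that differed by population. The 3 ovariectomized ASC1 libraries L, N and P were at 50.3, 284 and 105 CPM, all above the control females (log2 3.64, standard error 0.58, adjusted p = 1.14e-06, edgeR). The 8 ovariectomized ASC2 libraries were at 0 to 3.85 CPM with a median of 0 and overlapped the controls (log2 -2.44, standard error 0.90, adjusted p = 0.163, edgeR). When library sizes were replaced by the fibroblast markers, the ASC1 difference was 1.07 and no longer passed (adjusted p = 0.0695, edgeR).

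**Figure D2:**
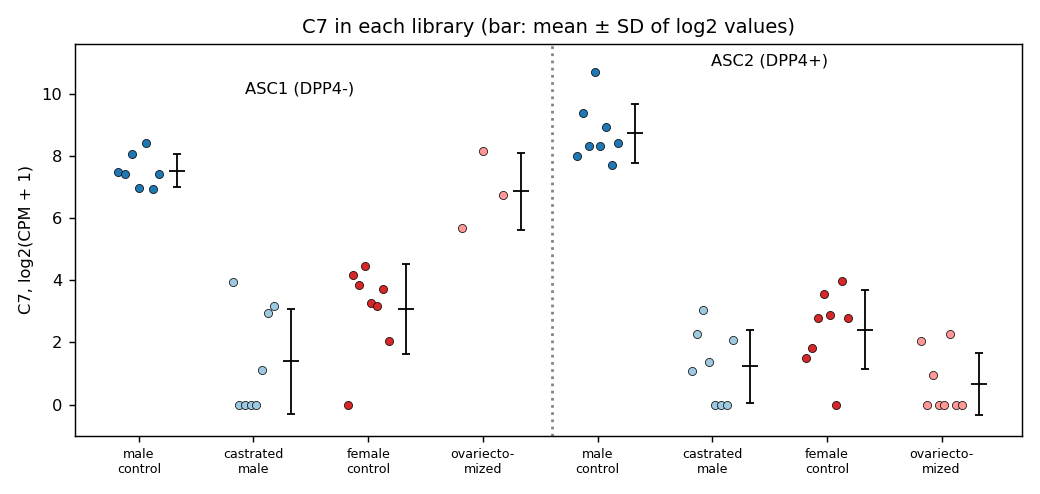
C7 in each of the 58 libraries by group, on a log2 scale of CPM plus 1, with 1 point a library and bars for the mean ± SD of the log2 values. All 15 control male libraries and the 3 ovariectomized ASC1 libraries lie at or above 50.3 CPM, and no other library exceeds 20.8 CPM.

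In castrated male ASC2, C7, C4b, Cfb, Serping1, C1s1 and C1ra were lower and Cfp and C5ar1 higher. Of the 23 members tested, 8 passed the threshold (34.8%), 6 lower and 2 higher, against 6.96% of all 12464 genes tested (4.32% lower and 2.65% higher). The median log2 fold change of the members was -0.57, against 0.00 over all genes. By role, none of the 4 genes of C1q and its binding protein (C1qa, C1qb, C1qc and C1qbp) passed (median log2 fold change 1.32). Lower were 2 of the 3 tested C1 and lectin proteases, 1 of the 3 tested genes among C4, C2 and C3, and 1 of the 6 tested regulators. Of the 3 alternative pathway genes, 1 was lower and 1 higher. C7 was the only terminal component called, and C5ar1, of 2 tested anaphylatoxin receptors, was higher.

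C4b (ENSMUSG00000073418.5), the C4 that C1s cleaves, lay at 197, 329 and 545 CPM (lowest, median and highest of 8) in control male ASC2 and at 23.9, 65.7 and 94.3 CPM in castrated male ASC2. The groups did not overlap, and the log2 fold change was -2.46 (standard error 0.33, adjusted p = 7.37e-07, edgeR), 5.52-fold lower. Cfb, which encodes factor B of the alternative pathway convertase, lay at 175, 280 and 314 CPM in controls and 44.5, 74.7 and 149 CPM in castrated males, again without overlap (log2 -1.57, standard error 0.35, adjusted p = 0.00214, edgeR). Serping1 lay at 1984, 2702 and 3832 CPM against 383, 1124 and 1552 CPM. These groups were separate as well (log2 -1.38, standard error 0.34, adjusted p = 0.00615, edgeR).

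The paired proteases of C1, C1ra and C1s1, which lie next to each other on chromosome 6 with no protein-coding gene between, were lower in castrated ASC2 with overlapping groups. C1s1 lay at 369, 515 and 685 CPM in controls and 115, 229 and 382 CPM in castrated males (log2 -1.08, standard error 0.25, adjusted p = 0.00397, edgeR). C1ra lay at 327, 455 and 635 CPM against 91.4, 215 and 472 CPM (log2 -0.87, standard error 0.27, adjusted p = 0.0354, edgeR). Their copies C1rb and C1s2 had at most 6.29 CPM in a library of these groups. C3, the component on which all pathways converge, lay at 844, 1797 and 3164 CPM against 94.2, 495 and 2218 CPM and did not pass (log2 -1.27, adjusted p = 0.0939, edgeR).

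These differences moved with the fibroblast markers, whose sum was 7047 to 11580 CPM in control male ASC2 and 3024 to 6641 CPM in castrated male ASC2. With library sizes replaced by those markers, which shifted the median of all genes by 1.01, C7 (-6.97) and C4b (-1.55, adjusted p = 6.15e-05, edgeR) remained lower. The split turned to 2 lower and 8 higher, with a median of 0.34 over the members, below the shifted median of all genes. C1qa, C1qb, C1qc, Cfp, C3ar1, C5ar1, Cr1l and C1qbp were the higher ones. The share of all genes called under this scaling is not given. Cfb was at -0.64 (adjusted p = 0.0773), Serping1 at -0.49 (adjusted p = 0.119), C1s1 at -0.15 (adjusted p = 0.537) and C1ra at -0.01 (adjusted p = 0.978, edgeR). Leaving out the 4 control libraries against the sex label also ended the call of C1ra (adjusted p = 0.131, edgeR), and C7, C1s1, C4b, Cfb and Serping1 still passed. C1qbp passed in addition and was higher, at 20.4 to 82.1 CPM against 2.23 to 29.9 CPM in the kept controls A to D. The summed ASC2 markers (Dpp4, Cd55 and Arl4d) had a median of 340 CPM in control male ASC2 and 152 CPM in castrated male ASC2. Their ranges were 189 to 494 CPM and 70.3 to 418 CPM, and their part in the differences was not tested.

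**Figure D3:**
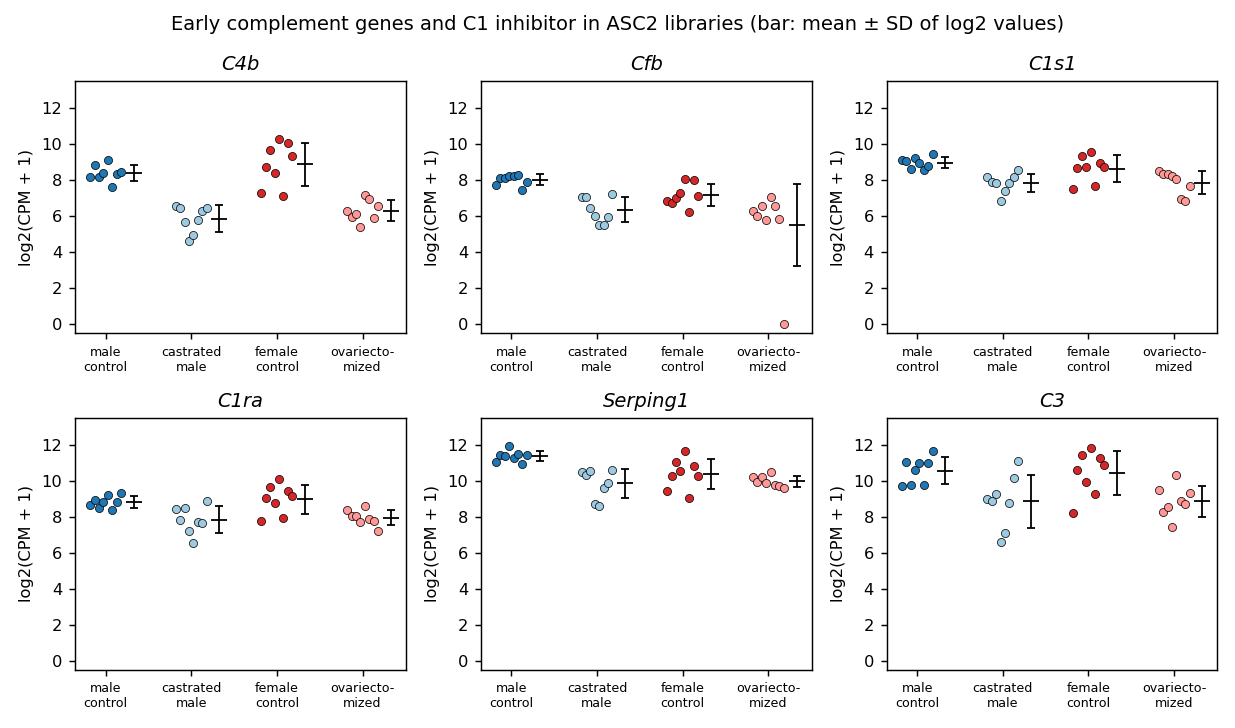
C4b, Cfb, C1s1, C1ra, Serping1 and C3 in each ASC2 library by group, on a log2 scale of CPM plus 1, with bars for the mean ± SD of the log2 values. C4b, Cfb and Serping1 of castrated males lie entirely below control males, while C1s1, C1ra and C3 overlap, and C4b of ovariectomized females (41.2 to 145 CPM) touches the lowest control female library at 140 CPM.

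In ASC1, castration was accompanied by lower C7 and C4b, with 4 further members whose calls ended without control replicates B, C and D. In all, 6 of the 23 tested members passed (26.1%), all lower, against 2.36% of all genes (1.3% lower and 1.06% higher). The median log2 fold change of the members was -0.91, and that of all genes -0.01. All 8 castrated ASC1 libraries and control replicates E, F, G and H held Xist, and control replicates B, C and D did not pass its limit, so that leaving out B, C and D compares libraries that all go against the label. C4b lay at 204, 259 and 372 CPM in control male ASC1 and at 66.7, 80.2 and 108 CPM in castrated male ASC1. The groups did not overlap (log2 -1.67, standard error 0.33, adjusted p = 0.00120, edgeR), a 3.19-fold difference.

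Cfd (adipsin) was at 5.23, 15.6 and 43.3 CPM in control male ASC1 and at 0, 1.43 and 5.90 CPM in castrated male ASC1 (log2 -2.71, standard error 0.77, adjusted p = 0.0400, edgeR). The adipocyte marker sum moved with it, from 8.68 to 61.1 CPM in controls to 1.31 to 14.4 CPM in castrated males, and its part in the result was not tested. Vtn, which encodes vitronectin, a plasma protein that blocks membrane insertion of the terminal complex, was at 9.96, 16.6 and 40.7 CPM against 0, 3.76 and 12.4 CPM (log2 -1.90, standard error 0.45, adjusted p = 0.0101, edgeR). Both pairs of groups overlapped slightly. In control replicates E to H alone, Cfd was at 5.23 to 15.6 CPM and Vtn at 9.96 to 34.7 CPM, above the castrated medians.

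Cfp (properdin, which stabilizes the alternative convertase) and C3ar1 (the C3a receptor) were lower, with log2 fold changes of -1.93 and -1.72 (adjusted p = 0.00164 and 0.0108, edgeR). Cfp was at 155, 132 and 179 CPM in control male ASC1 B, C and D, and at 20.0 to 31.4 CPM in E to H. C3ar1 was at 171, 117 and 154 CPM in B, C and D, and at 15.6 to 39.9 CPM in E to H. Castrated ASC1 libraries ran from 13.3 to 30.5 CPM for Cfp and from 18.9 to 36.6 CPM for C3ar1, overlapping with E to H for both genes. Replicates B, C and D had macrophage marker sums of 6415, 5289 and 6093 CPM, against at most 681 CPM in E to H. Without B, C and D, C7 (-6.04, adjusted p = 1.56e-09) and C4b (-1.50, adjusted p = 0.0376) passed, and Cfd (adjusted p = 0.279), Vtn (adjusted p = 0.119), Cfp and C3ar1 did not (log2 -0.30 and -0.15, edgeR). With the fibroblast scaling of all libraries, C7, C4b, Cfp and Vtn were lower and Cd55 (1.13) was higher.

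**Figure D4:**
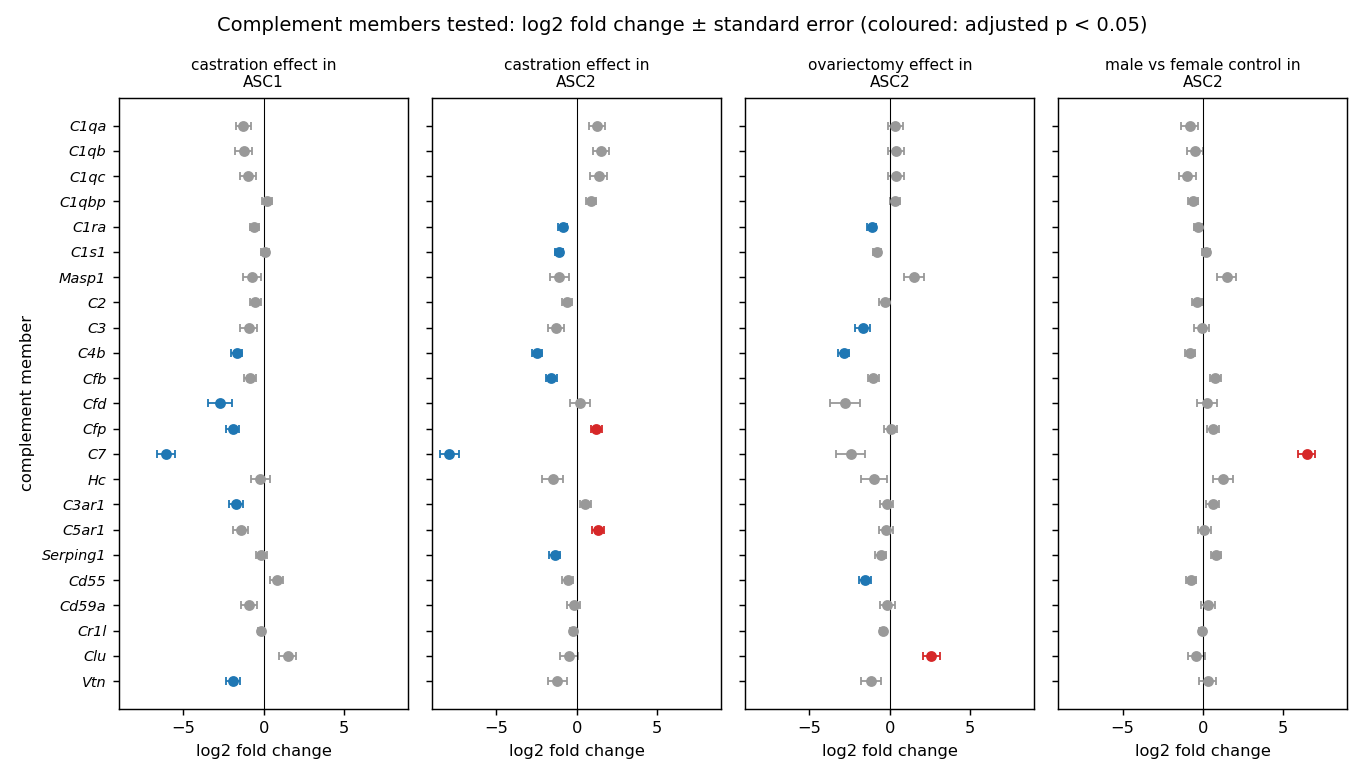
Log2 fold changes of the 23 tested members with standard errors in 4 comparisons, castration in ASC1, castration in ASC2, ovariectomy in ASC2 and male against female controls in ASC2, with blue (lower) or red (higher) points for an adjusted p below 0.05 (edgeR) and grey points otherwise. C7 lies at -6.09, -7.92, -2.44 and 6.45, farther from 0 than any other member in both castration comparisons and between the sexes, and in ovariectomized ASC2 the largest shift is that of C4b at -2.88.

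Cfp, lower in castrated ASC1, was higher in castrated ASC2, as was C5ar1. In ASC2, Cfp lay at 21.2, 33.3 and 45.4 CPM in control males and at 25.9, 51.1 and 181 CPM in castrated males (log2 1.23, standard error 0.36, adjusted p = 0.0267, edgeR). C5ar1, the C5a receptor gene, lay at 6.36, 20.2 and 27.3 CPM against 21.8, 34.0 and 88.8 CPM (log2 1.32, standard error 0.40, adjusted p = 0.0310, edgeR). C1qb did not pass (log2 1.50, adjusted p = 0.0510, edgeR). Both groups overlapped for each gene, and the highest values came from castrated ASC2 I and J, at 181 and 178 CPM for Cfp and 155 and 173 CPM for C1qb. The macrophage sum was 6570 CPM in I and 5937 CPM in J, against 1378 to 2483 CPM in the other 6.

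The castration effect was higher in ASC2 than in ASC1 for 5 of the 23 tested members (21.7%), against 2.41% of all genes (1.53% higher and 0.883% lower). These were C1qa (2.54), C1qb (2.75), Cfp (3.16), C3ar1 (2.26) and C5ar1 (2.75), with adjusted p from 0.000244 to 0.0303 (edgeR). C1qa and C1qb encode subunits of C1q, which macrophages are known to make. When the 5 libraries with over 5000 CPM of macrophage markers were left out, 0 members passed this test in edgeR, and 6 of 23 had an unadjusted p below 0.05. The share of all genes at that unadjusted limit is not given. Cfp in castrated ASC2 was then at 0.42 (adjusted p = 0.366) and C5ar1 at 0.76 (adjusted p = 0.175, edgeR). Without the control libraries against the sex label, Cfp and C5ar1 did not pass in ASC2 either (adjusted p = 0.0980 and 0.111, edgeR).

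**Figure D5:**
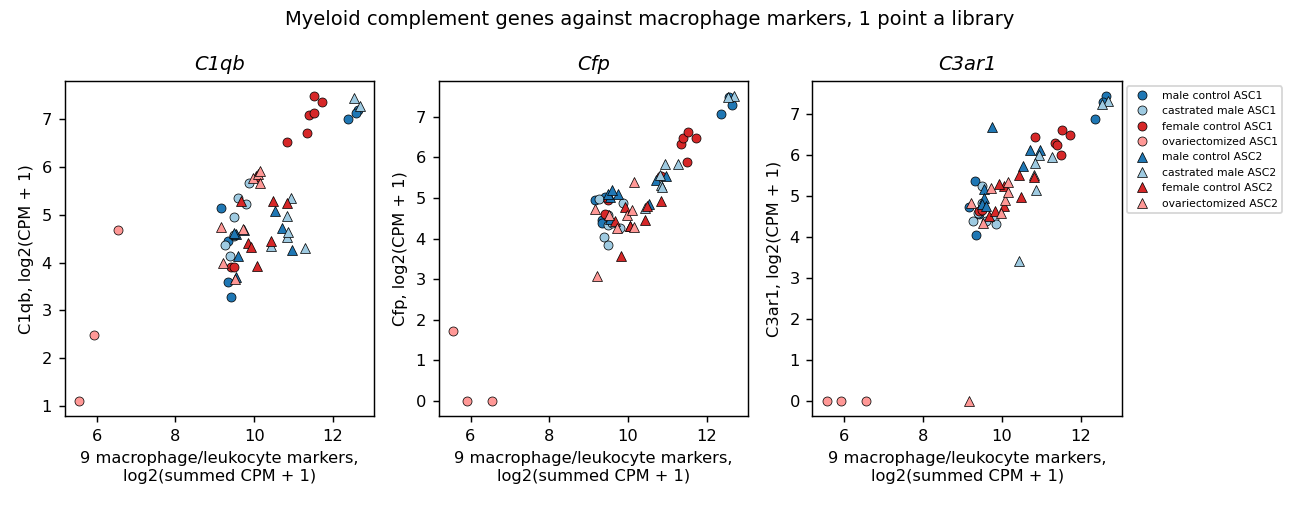
C1qb, Cfp and C3ar1 in each library (vertical axes) against the summed level of 9 macrophage and leukocyte markers (horizontal axes), both as log2 of CPM plus 1, with colour for sex and treatment, circles for ASC1 and triangles for ASC2. The 5 libraries over 5000 CPM on the horizontal axis, control male ASC1 B, C and D and castrated male ASC2 I and J, lie at the upper right for all 3 genes, and the 3 ovariectomized ASC1 libraries, at 45.7 to 92.9 CPM, lie at the far left.

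Between control males and control females, C7 was the only member past the threshold in either population with all libraries. That is 1 of 23 tested members (4.35%) in ASC1, against 0.289% of all genes (0.136% higher and 0.152% lower). It is 1 of 23 (4.35%) in ASC2, against 6.5% of all genes (3.63% higher and 2.87% lower). Unadjusted p below 0.05 (edgeR) was reached by 5 members in ASC1 and 6 in ASC2, and the share of all genes at that limit is not given. The median log2 difference of the members was -0.07 in ASC1 and 0.10 in ASC2. Masp1, the lectin pathway protease, was 1.46 higher in ASC1 (adjusted p = 0.452) and 1.48 higher in ASC2 (adjusted p = 0.126, edgeR). It varied within the control male ASC1 group, at 15.3, 3.91 and 6.96 CPM in B, C and D and 114 to 203 CPM in E to H. Without libraries against the sex label, Masp1, Cfp and C5ar1 passed beside C7 in ASC1, where 3 libraries remained of each sex. The males kept were B, C and D, which are rich in macrophage markers, and the females A, E and F. Masp1 then differed in the opposite direction, with females A, E and F at 13.1, 99.6 and 94.2 CPM. Cfp was at 132 to 179 CPM in these males and 23.6 to 45.9 CPM in these females. C5ar1 was at 35.7 to 66.7 CPM against 6.56 to 16.0 CPM. Without the macrophage-rich replicates B, C and D of control males, 7 members passed in ASC1, 2 higher and 5 lower in males, which were C7, C1qa, C1qb, C1qc, Cfp, C5ar1 and Masp1. The share of all genes called in that setting is not given.

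Ovariectomy in ASC2 was accompanied by lower C4b, C3, Cd55 and C1ra and higher Clu, 5 of 23 tested members (21.7%), against 2.09% of all genes (1.44% lower and 0.65% higher). The median log2 fold change of the members was -0.40 and that of all genes 0.00. C4b lay at 140, 537 and 1250 CPM in control female ASC2 and at 41.2, 72.0 and 145 CPM in ovariectomized ASC2 (log2 -2.88, standard error 0.34, adjusted p = 7.60e-08, edgeR). This was a 7.34-fold difference, with an overlap at the edge of the ranges. C3 lay at 291, 1690 and 3554 CPM against 173, 440 and 1283 CPM (log2 -1.69, standard error 0.49, adjusted p = 0.0479, edgeR). Its call ended under other scalings (adjusted p = 0.0553 with RLE size factors).

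Cd55, which encodes decay accelerating factor and which the study used as an ASC2 marker, lay at 40.7, 132 and 326 CPM in controls and 23.1, 46.3 and 76.5 CPM after ovariectomy (log2 -1.55, standard error 0.35, adjusted p = 0.00593, edgeR). C1ra lay at 215, 545 and 1086 CPM against 146, 248 and 388 CPM (log2 -1.13, standard error 0.27, adjusted p = 0.0120, edgeR). All of these groups overlapped. The summed ASC2 markers (Dpp4, Cd55 and Arl4d) had a median of 365 CPM in control female ASC2 and 134 CPM in ovariectomized ASC2. Their ranges were 162 to 839 CPM and 103 to 206 CPM. C3, C4b and Cd55 were also the members called higher in ASC2 than in ASC1 of control females. The part of the ASC2 markers in the lower values was not tested. Clu, which encodes clusterin, an inhibitor of the terminal complex, lay at 12.6, 30.9 and 80.6 CPM in controls and 48.2, 98.9 and 642 CPM in ovariectomized ASC2 (log2 2.58, standard error 0.52, adjusted p = 0.00196, edgeR).

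The high Clu values stood in 3 libraries, N, O and P, at 369, 475 and 642 CPM, and the other 5 were at 48.2 to 119 CPM. The summed epithelial markers (Epcam, Krt18, Krt8, Krt14 and Krt5) were at 877, 1074 and 1079 CPM in N, O and P, 475 CPM in M and 9.88 to 27.8 CPM in I to L, against 6.37 to 42.8 CPM in control female ASC2. Their part in the Clu difference was not tested. Without the 6 control libraries against the sex label, C4b was the only member past the threshold (log2 -2.77, adjusted p = 0.000123, edgeR), with 2 control libraries left. With the fibroblast scaling, C4b and Cd55 were lower and Clu higher.

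In ASC1 of ovariectomized females, 17 of 23 tested members passed the threshold (73.9%), 11 higher and 6 lower, against 34.8% of all genes (12.7% higher and 22.1% lower). The median log2 fold change was 1.06 for the members and -0.34 for all genes. The libraries of this group differed from all others in overall composition, and the fold changes depended on the scaling. Vtn was at 194, 418 and 260 CPM in replicates L, N and P, and at 6.23, 9.29 and 15.7 CPM (lowest, median and highest) in control female ASC1. The groups did not overlap, and the log2 fold change was 4.83 (standard error 0.46, adjusted p = 1.72e-12, edgeR). C2, the protease of the classical convertase, was at 887, 1179 and 681 CPM, against 14.0, 104 and 191 CPM in controls (log2 3.18, standard error 0.38, adjusted p = 8.83e-10, edgeR), again without overlap.

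C1s1, C1ra, C4b and Serping1 were higher by 2.49, 2.38, 2.30 and 2.14 on the log2 scale, Cd55, C3 and Cr1l by 1.77, 1.52 and 1.41. The call of C3 (adjusted p = 0.0461) ended when any 1 of the 3 libraries was left out (adjusted p = 0.0748 to 0.122, edgeR), and that of Cd55 without L (adjusted p = 0.0808, edgeR). Hc was also called higher (2.62), but replicate L held 78.9 CPM, N and P had none, and without L the value was -4.86. C1qa (-4.12), C1qb (-4.17), C1qc (-4.77) and Cfp (-5.24) were lower. Without the control libraries against the sex label C1qa, C1qb and C1qc did not pass (adjusted p = 0.103, 0.138 and 0.0793, edgeR), nor did C1qb without L (adjusted p = 0.0648, edgeR). C3ar1 and C5ar1 had no read in the 3 libraries and were at least 27.8-fold and at least 12.7-fold lower, against a floor of 3 counts over the group.

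The macrophage sum was 45.7 to 92.9 CPM in ovariectomized ASC1 and 679 to 3396 CPM in control female ASC1, with Adgre1 at 0. No epithelial marker had a read. With library sizes replaced by the fibroblast markers, the median of all genes was -2.88, Vtn alone remained called higher (2.20), and 13 members were lower. C1ra (-0.18), C1s1 (-0.10), C4b (-0.27), Serping1 (-0.41), Cd55 (-0.82), C3 (-1.01) and Cr1l (-1.25) changed sign. All of these 7 values lay above the shifted median.

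ASC2 and ASC1 of control animals differed in C3 and Cd55 in both sexes. In control males, 12 of 23 tested members passed (52.2%), 6 higher and 6 lower in ASC2, against 12.2% of all genes (6.88% higher and 5.3% lower). In control females 6 passed (26.1%), 3 higher and 3 lower, against 6.11% of all genes (3.54% higher and 2.58% lower). C3 lay at 106, 226 and 504 CPM in control male ASC1 and 844, 1797 and 3164 CPM in ASC2, without overlap (log2 2.56, adjusted p = 0.000522, edgeR), and was 2.05 higher in females. Cd55 was at 9.96, 13.3 and 22.9 CPM in male ASC1 and 59.8, 83.1 and 141 CPM in male ASC2 (log2 2.47, adjusted p = 1.12e-05, edgeR), and was 2.50 higher in females. Cd55 marks ASC2 in the study and is no independent finding here.

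Serping1 (1.53), Cfb (1.15), C1s1 (0.75) and C7 (1.44, standard error 0.38, adjusted p = 0.00760, edgeR) were also higher in male ASC2. C7 reached higher values than any ASC1 library in 4 of 8 ASC2 libraries. In females its log2 difference was -0.90 and did not pass (adjusted p = 0.450, edgeR), and C4b was 1.73 higher. C2 was lower in male ASC2, at 27.6, 52.7 and 66.4 CPM against 100 to 158 CPM in ASC1, without overlap (log2 -1.34, standard error 0.32, adjusted p = 0.00308, edgeR). Vtn was lower as well (-2.07). The C1q genes C1qa (-2.02), C1qb (-1.68) and C1qc (-1.97) and Cfp (-1.27) were lower in male ASC2, and C1qb (-1.77), Cfp (-1.57) and Clu (-2.08) in female ASC2.

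Without replicates B, C and D of control male ASC1, C2, C3, Cfb, Serping1, Cd55 and Vtn passed. C7 was then at 1.48 (adjusted p = 0.0556, edgeR), and C1qa and C1qc at -0.17 and -0.23. C1qb (0.22) and Cfp (0.35) had the opposite sign. Without libraries against the sex label, C3, Serping1, Cfb and C1s1 of males did not pass (adjusted p = 0.157, 0.0725, 0.267 and 0.403, edgeR). That setting kept 3 ASC1 and 4 ASC2 libraries of control males. In control females it kept 3 ASC1 libraries (A, E and F) and 2 ASC2 libraries (C and D). With these, C1ra, C3, C4b, Serping1 and Cd55 passed in females, all higher in ASC2, while C1qb was at 0.63.

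Masp1, Cd59a and C1qbp passed in none of the 9 comparisons with all libraries under TMM scaling. Under the fibroblast scaling, all 3 were lower in ovariectomized ASC1, and C1qbp was higher in castrated ASC2. Cd59a, which encodes an inhibitor of C9 assembly, had log2 fold changes between -0.91 and 0.89 and was at no more than 25.2 CPM outside ovariectomized ASC1. C1qbp, a mitochondrial protein named for its binding of C1q, was closest in castrated ASC2 (0.91, standard error 0.32, adjusted p = 0.0705, edgeR), at 20.4, 47.6 and 82.1 CPM against 2.23, 22.6 and 50.4 CPM in controls. Cr1l, a membrane regulator of C3 convertases, passed in ovariectomized ASC1 and in no other comparison, with log2 differences of -0.40 to 0.38 in the rest.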

How the data were processed

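The authors sorted ASC1 and ASC2 from iWAT and sequenced Smart-seq3 libraries. They trimmed reads with NGmerge, used STAR 2.7.10a for quality control, quantified with Salmon 1.9.0 on Gencode transcripts of GRCm39 and removed libraries with few detected genes. They deposited estimated counts per gene, not normalized, with UMI and other reads added together. Of the counts above 0, 15.0% were not whole, and all were rounded here. All 58 libraries were kept, each in the group that its label gives.

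Counts were tested in R 4.3.3 with edgeR 4.0.16 (TMM, glmQLFit, glmQLFTest) on the 12464 genes that reached 5 reads in more than 3 libraries, with 1 coefficient for each of 8 groups. P-values were two-sided and adjusted (Benjamini-Hochberg) over all these genes, with 0.05 as threshold. The biological coefficient of variation was 35.6%. Plots add 1 CPM before the log2. Where a group had no reads, folds were computed against a floor of 3 counts, which covers counting error only. The range of depth, 106566 to 1421547 reads, limits the precision for low genes. The steps were tested on simulated data. Replicates were checked for copies, and the lowest chi-square per gene within a group was 1.53.

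Symbols came by identifier from Gencode vM21 (12371 of the genes tested, 52029 of all), built on GRCm38. Promoter windows were taken from RefSeq on GRCm38.p6 for the 24 members that matched, and no other coordinates are given. Tables were made in Python 3.11.15 with pandas 2.3.3. The named genes are C7, every member past the threshold in a comparison, the untested members, and genes of marker and other complement lists. Some genes of the lists are not reported here. The members, lists and comparisons were chosen with earlier results of these data known.

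Alternatives were DESeq2 1.42.0, RLE size factors, no filter, library size only, filterByExpr, only the groups compared, leaving out libraries against the sex label, limma 3.58.1 voom with a correlation between libraries of a presumed mouse, a replicate block by letter, and each ovariectomized ASC1 library left out. Leaving out the 3 ovariectomized ASC1 libraries, scaling to 4 fibroblast markers and leaving out the 5 libraries with over 5000 CPM of macrophage markers were chosen after seeing the data.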

Additional observations from a re-analysis of the deposited data

Results flagged for a closer look

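In groups of 4 to 10 libraries, a value far from all others in its group was found in 8 of 161 groups of a member, against 8.05 that chance alone gives at 1 in 20, and all 8 were high. C7 was at 1664 CPM in control male ASC2 D, where the next library was at 672 CPM. Cfd was at 43.3 CPM in control male ASC1 B (next 20.9), at 39.8 CPM in control female ASC1 G (next 16.7), at 16.5 CPM in control female ASC2 G (next 10.3) and at 17.1 CPM in ovariectomized ASC2 P (next 2.48). C3ar1 was at 36.6 CPM in castrated ASC1 O (next 27.2). Cr1l was at 242 CPM in control female ASC2 E (next 128), and Clu at 80.6 CPM in control female ASC2 C (next 44.4).

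The effect of castration differed between ASC2 and ASC1 by a test of the difference itself (edgeR) for C1qa by 2.54 on the log2 scale, C1qb by 2.75, Cfp by 3.16, C3ar1 by 2.26 and C5ar1 by 2.75. None of these 5 passed without the 5 libraries with over 5000 CPM of macrophage markers.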

How the results depend on the processing

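Over the alternatives run, and for C7 and the members called with all libraries, 606 log2 fold changes kept direction and side of the threshold, 74 no longer passed, 1 (C7 in ovariectomized ASC2) passed where it had not, and 13 changed sign. Members that passed under an alternative alone enter the counts of members called, of which 77 stayed within 1.5 times the main count while 18 did not. Counts under alternatives are given without the share of all genes called. C7 kept its call in both castration comparisons and between the sexes in all alternatives run, with ranges of -6.67 to -5.73 (castration, ASC1), -8.36 to -6.97 (castration, ASC2), 3.98 to 4.78 (sexes, ASC1) and 6.31 to 6.54 (sexes, ASC2).

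Without the count filter, counts moved to 10 (castration, ASC1), 2 and 3 (sexes, ASC1 and ASC2), 10 (ovariectomy, ASC2, where C7 at -2.42 then passed, adjusted p = 0.0384, edgeR) and 9 (castration, ASC2 minus ASC1). Without macrophage-rich libraries they were 2 (castration, ASC1), 7 (sexes, ASC1), 6 (ASC2 against ASC1, males) and 0 (ASC2 minus ASC1). Without libraries against the sex label they were 4 (sexes, ASC1) and 1 (ovariectomy, ASC2). That setting could not be run for castration in ASC1 or for ASC2 minus ASC1, where no castrated ASC1 library would be left. Limma voom gave 2 (ovariectomy, ASC2) and 1 (ASC2 minus ASC1), the fibroblast scaling 3 (ovariectomy, ASC2), and only the groups compared 2 (sexes, ASC2). Leaving out each ovariectomized ASC1 library gave 14 to 17 members.

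Signs changed in ovariectomized ASC1 under the fibroblast scaling for C1ra (-0.18), C1s1 (-0.10), C3 (-1.01), C4b (-0.27), Serping1 (-0.41), Cd55 (-0.82) and Cr1l (-1.25), and for Hc without replicate L (-4.86, and up to 3.12 without P). Between ASC2 and ASC1 they changed for C1qb (0.22) and Cfp (0.35) of males without macrophage-rich libraries, and for C1qb of females (0.63) without libraries against the sex label. For ASC2 minus ASC1 they changed for C1qa (-0.62) and C1qb (-0.38) without macrophage-rich libraries. The cause was not tested.

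The replicate letters did not consistently pair the ASC1 and ASC2 libraries. Same-lettered ASC1 and ASC2 libraries correlated at 0.067 to 0.344 in control males, -0.124 to 0.494 in control females and -0.323 to 0.087 in castrated males. Of the 7 control male libraries, 3 correlated best with their own letter. Same-lettered ASC1 libraries of control males and control females, of different sex by label, correlated at -0.259 to 0.458 (median 0.273). There, 4 of 7 correlated best with their own letter. What the letters stand for was not tested. With a replicate block, 2 members passed between the sexes in ASC1, 2 in ASC2, 10 and 7 between ASC2 and ASC1 of males and females, and 3 for ASC2 minus ASC1. No paired analysis was possible for castration or ovariectomy against controls because those groups share no letters.

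Depth limits the terminal components other than C7 and Hc, which had too few reads for a test at these library sizes.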

Other observations

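Among 26 further complement genes, 9 had enough reads to be tested. Thbd, which encodes thrombomodulin, a membrane protein that dampens both coagulation and complement, was lower after ovariectomy in ASC2. It lay at 343, 483 and 1281 CPM (lowest, median and highest) in control females and 170, 245 and 436 CPM in ovariectomized females, with overlap (log2 -1.16, standard error 0.25, adjusted p = 0.00409, edgeR). In ASC1 it was higher after ovariectomy, at 791, 941 and 632 CPM in L, N and P, the libraries that stood apart, against 164, 324 and 397 CPM in control females (log2 1.42, standard error 0.32, adjusted p = 0.000360, edgeR). The log2 difference of control males from control females in ASC2 was -0.81 (adjusted p = 0.0324, edgeR), and Thbd was 0.84 and 0.99 higher in ASC2 than in ASC1 of males and females (adjusted p = 0.0230 and 0.00621, edgeR).

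Itgam and Itgb2, which encode the chains of complement receptor 3 of myeloid cells, had castration effects that were 2.95 and 2.87 higher in ASC2 than in ASC1 (adjusted p = 0.0117 and 0.00194, edgeR), beside the same 5 libraries with high macrophage markers. Colec12 and C1rl passed in no comparison.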
